A study of Mus musculus with 3 samples.

Results

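The Nkx2 and Nkx3 genes described here are 8 homeobox genes, Nkx2-1, Nkx2-2, Nkx2-3, Nkx2-4, Nkx2-5, Nkx2-6, Nkx2-9 and Nkx3-2, out of 21631 protein-coding genes (Y not counted). Their regions were taken by gene name. A called region belonged to a member when its gene column held the member's name or when it overlapped the member's gene bounds, which gave 9 of 7838 regions in replicate 1 and 8 of 8093 in replicate 2, or 17 of 15931 in all. The regions come from ChIP-seq, in which immunoprecipitated chromatin is sequenced, here with an antibody to histone H2A ubiquitinated on a lysine of its tail (H2AK119ub). The chromatin was that of EpCAM-sorted tongue epithelium from control mice at postnatal day 0, with the circumvallate papillae cut away. There were 2 H2AK119ub libraries, called biological replicates by the submitters, and 1 input library that was not analysed here. The sources used here do not give the alleles behind the control genotype, the sex of the mice or whether tongues were pooled.

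H2AK119ub is deposited by Polycomb repressive complex 1, which together with Polycomb repressive complex 2 keeps developmental genes silent in tissues that do not use them. Nkx2 and Nkx3 proteins are transcription factors of the NK homeobox class, related to the Drosophila genes tinman, vnd and bagpipe, and each is used in a limited set of organs. They are best known from the thyroid, lung, forebrain, heart, pancreas and skeleton. The files hold regions and no expression values, so whether a gene was transcribed in this epithelium, and whether the sorted cells carried the markers of the labelled tissue, could not be read from them.

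The promoters of 3 members are shown because they span the CpG content of the family. Each is the RefSeq promoter window of 300 bases in GRCm38.p6, 250 before and 50 after the annotated transcription start, with CpG dinucleotides in capitals. They belong to Nkx2-4 (chr2:147085296-147085595, minus strand), to Nkx2-1 (chr12:56536859-56537158, minus strand) and to Nkx2-5 (chr17:26841516-26841815, minus strand).
Nkx2-4: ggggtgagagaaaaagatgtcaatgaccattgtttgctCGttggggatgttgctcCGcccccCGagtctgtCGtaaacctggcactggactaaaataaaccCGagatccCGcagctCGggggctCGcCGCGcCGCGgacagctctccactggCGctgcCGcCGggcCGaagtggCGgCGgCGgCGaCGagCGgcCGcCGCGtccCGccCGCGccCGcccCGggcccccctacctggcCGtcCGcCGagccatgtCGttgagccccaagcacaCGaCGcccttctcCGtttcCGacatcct
Nkx2-1: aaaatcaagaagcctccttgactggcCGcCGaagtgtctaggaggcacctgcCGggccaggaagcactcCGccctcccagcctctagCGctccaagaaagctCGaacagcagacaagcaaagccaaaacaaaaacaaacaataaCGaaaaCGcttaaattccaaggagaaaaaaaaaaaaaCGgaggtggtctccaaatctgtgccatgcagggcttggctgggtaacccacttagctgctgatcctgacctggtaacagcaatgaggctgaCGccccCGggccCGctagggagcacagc
Nkx2-5: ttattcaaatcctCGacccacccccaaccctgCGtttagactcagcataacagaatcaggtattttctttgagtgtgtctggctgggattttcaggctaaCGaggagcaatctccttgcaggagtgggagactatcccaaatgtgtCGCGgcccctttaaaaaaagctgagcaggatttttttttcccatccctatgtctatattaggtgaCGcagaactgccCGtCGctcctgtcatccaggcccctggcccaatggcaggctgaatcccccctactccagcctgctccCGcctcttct
The Nkx2-4 window holds 38 CpGs, that of Nkx2-1 12 and that of Nkx2-5 9. All of these windows lie inside H2AK119ub regions of both replicates. The windows with the fewest CpGs, those of Nkx2-5 and Nkx2-1, belong to the members with the widest regions. Nkx2-2, next in width, has 17 CpGs, above the members' median of 15, and a link of CpG content to width was not tested.

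All 8 members carried the mark. Here a gene is called marked when a region of the authors' promoter class named it in both replicates. That held for 8 of 8 members, against 1908 of 21631 protein-coding genes (8.82%). In replicate 1 taken alone 12.8% of protein-coding genes were named by a promoter region, and in replicate 2 alone 12.4%. All 8 members are among them in each, which follows from the rule of both replicates. The members were chosen with earlier results of these data known, so their count is a description and no test was run on it. They lie at 6 places in the genome when genes within 100 kb are counted as 1, because Nkx2-1 with Nkx2-9 and Nkx2-4 with Nkx2-2 are neighbours.

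The widest regions lay over Nkx2-1 and Nkx2-5, and the narrowest over Nkx2-6 and Nkx2-4. Nkx2-1, which specifies the thyroid, the lung and parts of the ventral forebrain, had 1 region in each replicate, of 43.3 kb in replicate 1 and 43.7 kb in replicate 2 (mean 43.5 ± 0.28 kb, SD, n = 2). In mm10 the replicate 1 region spanned 56505607 to 56548904 of chromosome 12, and the replicate 2 region 56503411 to 56547097. The gene itself measures 4.97 kb, so the region was 8.74 times as long as the gene. Of the regions of all kinds, 59 were wider in replicate 1 and 38 in replicate 2. The Nkx2-1 regions reached 31.3 and 33.5 kb past the transcription start in the direction of transcription, and 11996 and 10189 bp upstream of it. In both replicates they were also named for Sfta3-ps, a neighbouring noncoding gene of which they covered 61.1% and 66.7%.

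Nkx2-5, a factor that heart muscle progenitors need, lay in a region of 34.9 kb in replicate 1 and 30.9 kb in replicate 2. These regions ran on chromosome 17 from 26831899 to 26866757 and from 26832184 to 26863098, and extended 25.2 and 21.5 kb upstream of the start but 9.67 and 9.38 kb past it. The left edges of the replicates differed by 285 bp and the right edges by 3659 bp. Nkx2-6, a close relative expressed in the pharyngeal pouches and early heart, had the narrowest region of the family, 11.3 kb in replicate 1 and 14.2 kb in replicate 2. It lay on chromosome 14, from 69167076 to 69178362 and from 69163907 to 69178155, and the same regions carried the name of the noncoding gene 1700092C10Rik. Both genes lay wholly inside their regions, and the Nkx2-5 regions were wider than the Nkx2-6 regions in both replicates.

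Nkx2-2, which acts in the ventral spinal cord and in the endocrine pancreas, had regions of 27.0 kb in replicate 1 and 26.9 kb in replicate 2. They ran on chromosome 2 from 147176706 to 147203680 and from 147174281 to 147201219. The widths were nearly equal, but the replicate 2 region was shifted by 2425 bp at its start and 2461 bp at its end, both toward lower coordinates. Nkx2-2 is the longest member at 18950 bp, and in replicate 1 its region began inside the gene and covered 98.8% of it. Those regions were also named for the antisense gene Nkx2-2os and for 6430503K07Rik, 2 noncoding genes.

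Nkx2-4, a relative of Nkx2-1 expressed in the hypothalamus, lies 91.0 kb from Nkx2-2. Its promoter region spanned 147079189 to 147095171 in replicate 1, a width of 15982 bp, while that of replicate 2 was 14956 bp wide and spanned 147078566 to 147093522. Replicate 1 had a second, distal region of 4.28 kb named for Nkx2-4, which began 1.80 kb beyond the first and had no partner in replicate 2. On the other side, the Nkx2-4 regions stopped 1.19 and 0.566 kb short of Xrn2, a gene for a nuclear RNA exonuclease. No other protein-coding gene lay closer to a member region.

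Nkx2-9, which is expressed in the ventral neural tube, was the member on which the replicates agreed most closely. Its regions measured 23.0 and 23.5 kb (56600672 to 56623716 in replicate 1 and 56600594 to 56624101 in replicate 2, chromosome 12), with edges 78 and 385 bp apart. The gene is 2.18 kb long and the region 10.7 times that, the highest ratio in the family. It sat near the middle of its region, with 10.7 and 10.8 kb on the left and 10.1 and 10.5 kb on the right.

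Nkx2-3, needed in mice for the spleen and gut and for maturation of the sublingual glands and teeth, is the member with a described role in oral organs. Its regions measured 22.1 kb in replicate 1 and 16.5 kb in replicate 2, on chromosome 19 from 43609201 to 43631299 and from 43609896 to 43626436. The difference lay at the right edge, which differed by 4863 bp, whereas the left edges were 695 bp apart. The shared length was 74.8% of the length in either replicate, the lowest value of the 8 members, and the whole gene lay inside both regions.

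Nkx3-2, also called Bapx1, which patterns the axial skeleton and the jaw joint, had regions of 21.8 kb in replicate 1 and 18.3 kb in replicate 2 (chromosome 5, 41750012 to 41771800 and 41751733 to 41769983). No other region lay near it. The next region of the list lay 2215 kb away in replicate 1 and 2116 kb away in replicate 2. Other marked genes had a median of 22.7 and 20.3 kb to the next region, and 31 of 1908 marked genes (1.62%) had none within 1000 kb in both replicates. Of those, 10 had a longer gap than Nkx3-2. The other members had another region within 106 kb in both replicates, and Nkx2-6 had one within 15.4 kb.

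**Figure D1:**
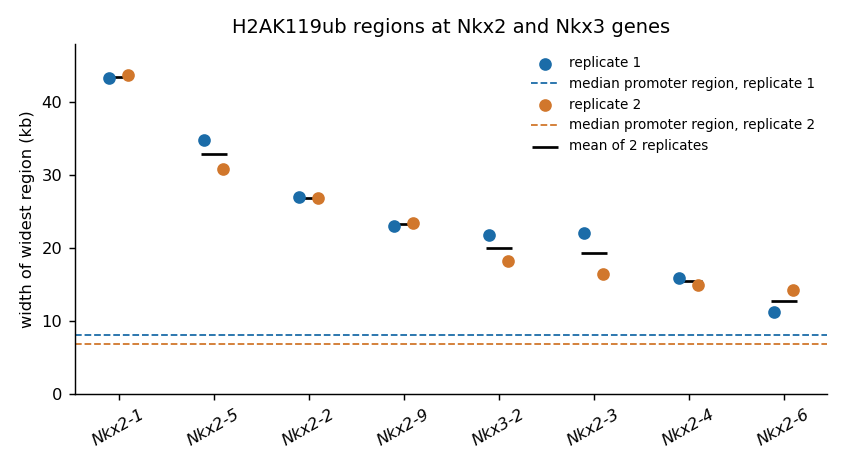
Width in kb of the widest H2AK119ub region at each of the 8 genes, in replicate 1 (blue) and replicate 2 (orange), with the mean of the 2 as a bar and the median width of each list's promoter regions as dashed lines. Every point lies above the dashed lines, from 11.3 kb at Nkx2-6 in replicate 1 to 43.7 kb at Nkx2-1 in replicate 2.

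The order of the members by width was nearly the same in the 2 lists. In both it began Nkx2-1, Nkx2-5, Nkx2-2, Nkx2-9 and ended Nkx2-4, Nkx2-6, while Nkx2-3 and Nkx3-2 changed places. The replicate values of neighbours in this order did not overlap, except for Nkx3-2 and Nkx2-3, whose means of 20.02 ± 2.50 kb and 19.3 ± 3.93 kb (SD, n = 2 each) could not be told apart. The median over the members was 22.6 kb in replicate 1 and 20.9 kb in replicate 2, against medians of 8080 and 6843 bp for all promoter regions of the lists.

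Against the other marked genes, the members had wide regions on short genes. The mean width over the replicates had a median of 21.6 kb in the 8 members (12.8 to 43.5 kb) and of 10.04 kb in the 1900 other marked genes (quartiles 5.58 and 17.7 kb). Of the members, 6 of 8 exceeded that upper quartile, and Nkx2-4 and Nkx2-6 did not. A mean width of at least 20 kb was found in 5 of 8 members (62.5%) and in 388 of 1900 other marked genes (20.4%). The median gene length was 3.65 kb in the members and 16.9 kb in the others. Even the narrowest member, Nkx2-6, was exceeded by only 724 of the 1908 marked genes, or 37.9%.

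**Figure D2:**
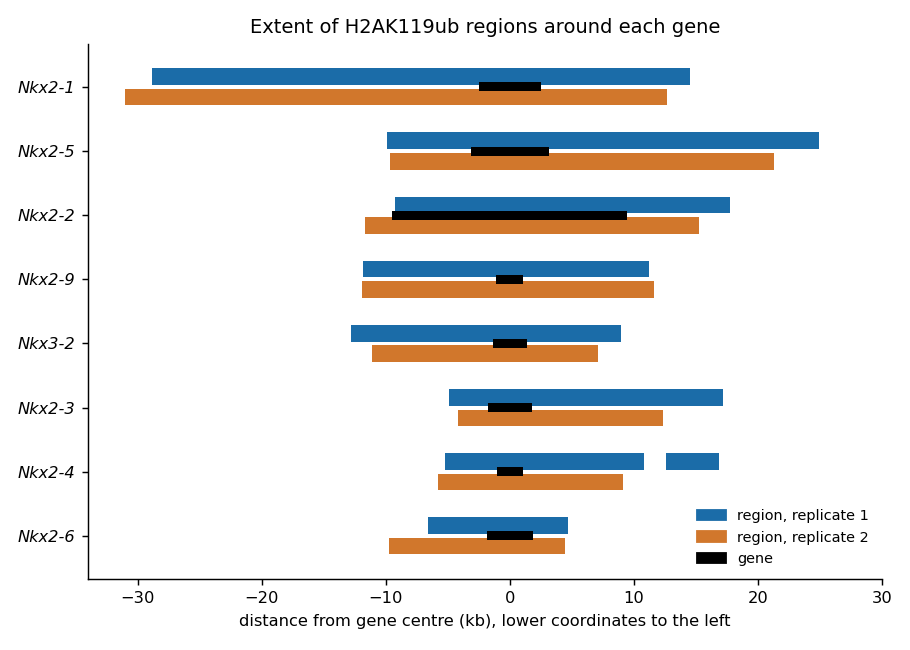
Extent of the H2AK119ub regions in replicate 1 (blue) and replicate 2 (orange) around each gene (black), in kb from the centre of the gene with lower coordinates to the left. Each gene lies within its regions except for the left end of Nkx2-2 in replicate 1, and the regions of Nkx2-1, Nkx2-5 and Nkx2-3 extend mainly to one side.

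Regions covered the genes from end to end. On average 99.9% of a member's length was covered in replicate 1 and 100% in replicate 2, against 48.3% and 45.4% of the length of the other marked genes and 6.51% and 6.15% of that of all protein-coding genes. In both replicates 7 of 8 members lay wholly inside their widest promoter region, Nkx2-2 being the exception, compared with 20.5% of marked genes. Gene length moves with this share. Among the 694 marked genes under 10 kb, 49% lay wholly inside, and all 7 members under 10 kb did. The annotated transcription start was inside the region in both replicates for each of the 7 members that have a promoter entry in RefSeq, against 62.6% of the 1444 marked genes with such an entry. Nkx2-6 is the member without one.

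The start was not at a fixed place in the region. Regions extended farther upstream than downstream of the start in both replicates for Nkx2-5, Nkx2-2 and Nkx2-4, and farther downstream for Nkx2-1, Nkx2-3, Nkx2-9 and Nkx3-2. Nkx2-3 had the shortest upstream reach, 3.12 and 2.43 kb, against 18.97 and 14.11 kb downstream. The direction of the longer arm was the same in both replicates for all 7 genes with an annotated start. It depends on the start used for Nkx2-2, whose annotated bounds reach beyond the promoter entry: past the outer end of those bounds its regions extended 8.25 and 5.79 kb, less than the part on the other side.

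Neighbouring members were not joined into one domain. Nkx2-1 and Nkx2-9 lie 74.5 kb apart, and regions covered 30.5% of the stretch between them in replicate 1 and 28.2% in replicate 2, all of it next to the genes. An uncovered stretch of 51.8 kb in replicate 1 and 53.5 kb in replicate 2 separated the regions. Between Nkx2-4 and Nkx2-2 the covered share was 15.4% and 11.3%, with uncovered stretches of 75.5 and 80.8 kb.

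The protein-coding genes beside the members were left out of the regions. Member regions overlapped 11 other annotated genes, each in both replicates, and all 11 were noncoding. The authors' lists named 4 of them, Sfta3-ps, Nkx2-2os, 6430503K07Rik and 1700092C10Rik. The other 7 are Gm26973, Gm20467, Gm34922, Gm34889, LOC115488773, Gm17382 and Gm46910. Gm46910, LOC115488773 and 6430503K07Rik were covered over their full length in both replicates. Because a broad region spans a member and its noncoding neighbour at once, the mark cannot be assigned to either of the genes.

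**Figure D3:**
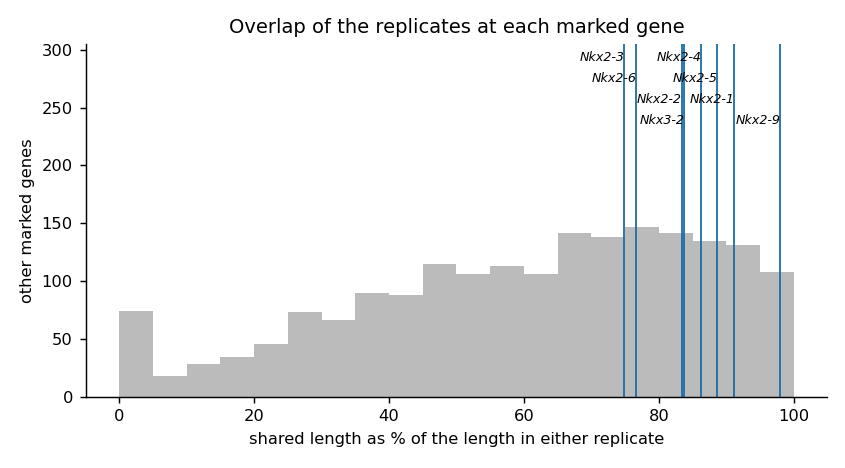
Length shared by the 2 replicates as a percentage of the length covered in either, for the widest promoter region of each of the 1900 other marked genes (grey histogram, number of genes) and for each member (blue lines). The members lie between 74.8% at Nkx2-3 and 98.0% at Nkx2-9.

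The replicates overlapped at every member. Of the 17 member regions, 16 had a partner in the other replicate, and the exception was the distal Nkx2-4 region. The shared length was 98.0% of the length in either replicate at Nkx2-9, 91.2% at Nkx2-1, 88.7% at Nkx2-5 and 86.3% at Nkx2-4. It was 83.8% at Nkx3-2, 83.4% at Nkx2-2, 76.6% at Nkx2-6 and 74.8% at Nkx2-3. The median was 85.0% in the members and 64.6% in the other marked genes, and wider regions lose less of their length to an edge shift of a given size. In base pairs the mean edge difference had a median of 1871 bp in the members and 2038 bp in the other marked genes (quartiles 947 and 4115 bp). The edges of the members thus lay about as far apart as those of other marked genes.

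Promoter sequence was compared in the 7 members with a RefSeq window. The median window of the members held 15 CpGs, against 19 in the 1936 windows of other marked genes and 12 in 19102 windows of unmarked protein-coding genes. The ratio of observed to expected CpG ranged from 0.47 at Nkx2-5 to 1.10 at Nkx2-4, with a median of 0.57 in the members, 0.68 in other marked genes and 0.56 in unmarked ones. Their CpG content thus lay within the range of both sets. Nkx2-1, with the widest region, had a ratio of 0.56, and 4 of 7 members fell below the median of other marked genes.

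**Figure D4:**
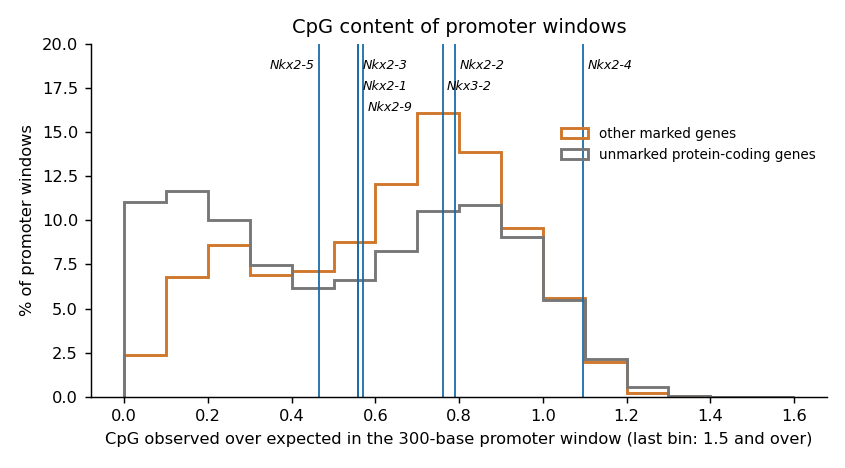
Ratio of observed to expected CpG in the promoter windows of 7 members (blue lines), of other marked genes (orange) and of unmarked protein-coding genes (grey), these 2 sets as a percentage of their windows per bin of 0.1. The members spread from 0.47 at Nkx2-5 to 1.10 at Nkx2-4, and Nkx2-1, Nkx2-3 and Nkx2-9 lie close together near 0.56.

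Short motifs were searched on both strands of the same windows. The GC box GGGCGG occurred in 6 of 7 member windows (85.7%), all but that of Nkx2-5. It occurred in 60.3% of windows of other marked genes, 45.3% of those of unmarked protein-coding genes and 35.7% of all 32851 windows. The TATA sequence TATAAA was in 0 of 7, against 8.11% of windows of other marked genes and 13.6% of all windows. The consensus TNAAGTG, which NK2 homeodomains bind, was in 9.14% of windows of other marked genes and 11.5% of all windows. Among the members 1 of 7 windows (14.3%) held a match. It lay in the Nkx2-2 window, on the opposite strand, starting 197 bases before the transcription start, and is shown with its flanks because it is the NK2 consensus in a gene of the NK2 family, with the match in capitals.
Nkx2-2: actgtcttcatcCACTTGActcccaagacc
The E-box CACGTG was found in the Nkx2-2 window as well, 1 of 7. It was in 8.06% of windows of other marked genes and 7.15% of all windows. These are matches of letters in windows of 300 bases, while the regions are many times longer.

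Related families also held many marked genes, beside a share of 8.82% over all protein-coding genes. Of 30 other NK-class homeobox genes, 25 were marked (83.3%), with a median width of 24.4 kb. They include Nkx6-1 (30.2 and 30.2 kb), a ventral neural tube and beta cell factor, Msx2 (37.5 and 36.2 kb) and Msx1 (26.5 and 23.3 kb), factors of craniofacial mesenchyme and teeth, and Nkx6-2 (13.0 and 12.6 kb). Of 12 LIM homeobox genes 11 were marked (91.7%), with a median width of 24.1 kb. Of 9 Pax genes 6 were marked (66.7%), with a median width of 42.5 kb. The 8 members, at 8 of 8 and 21.6 kb, thus had the highest share and the lowest median width of these 4 families, with ranges that overlap each other. None of these differences was tested.

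**Figure D5:**
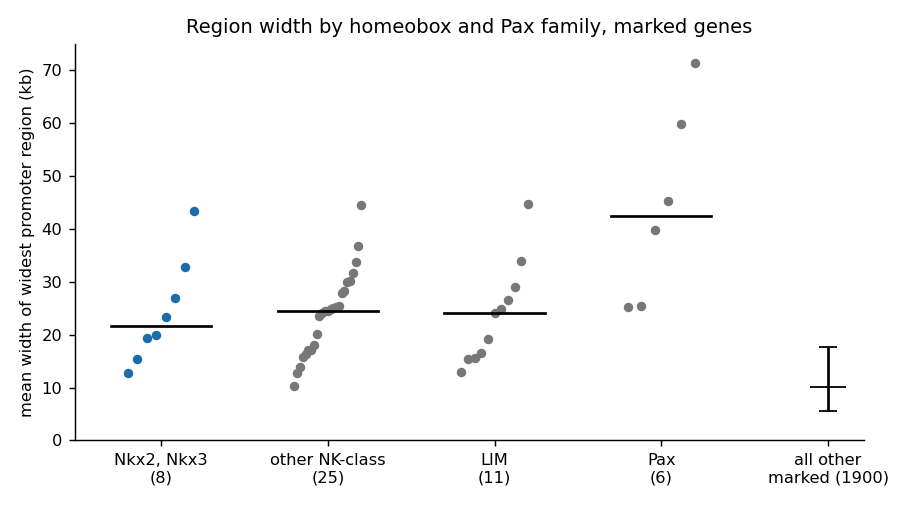
Mean width over the replicates, in kb, of the widest promoter region of each marked gene in the Nkx2 and Nkx3 members (blue) and in 3 other families (grey), with the number of marked genes in brackets and a line at the median. The point at the right gives the median and quartiles of the 1900 other marked genes. The members spread from 12.8 to 43.5 kb.

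The marked genes whose widths were most like the median member, by distance between log10 widths over the 2 libraries, were Pitx3, Elovl3 and Gbf1, which share regions of 22.5 and 21.1 kb, followed by Ntn1 (23.2 and 20.5 kb) and Pou4f1 (21.9 and 21.4 kb).

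The partners and downstream genes of the members were counted by organ. Against 8.82% of all protein-coding genes, 6 of 11 heart factors that work with Nkx2-5 were marked (54.5%). They were Gata4 (46.7 and 48.1 kb), Hand2 (56.6 and 56.7 kb), Hand1 (23.9 and 21.8 kb), Gata6, Tbx5 and Tbx20. Of 12 heart muscle genes 3 were marked (25%). They include the atrial myosin light chain gene Myl7 (9.43 and 9.44 kb) and the troponin gene Tnnt2 (3.64 and 9.23 kb). The regions of Myl7 and Tnnt2 were narrower in both replicates than those of any of the 6 marked factors and than those of Nkx2-5.

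For the thyroid and lung, of 10 factors that act with Nkx2-1, 5 were marked (50%). They include Foxe1 (24.1 and 22.3 kb) and Hhex (12.6 and 15.1 kb). Foxa1 and Foxa2 were named in replicate 1 only. Of 13 thyroid and lung genes downstream of Nkx2-1, 1 was marked, the iodide transporter gene Slc5a5 (7.99 and 6.06 kb). That is 7.69%, near the 8.82% of all protein-coding genes.

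Of 16 genes that pattern the ventral neural tube, where Nkx2-2 and Nkx2-9 act, 11 were marked (68.8%, against 8.82% of all protein-coding genes). They include the ligand gene Shh (19.1 and 27.0 kb), Olig2 (24.8 and 27.3 kb) and Pax6 (46.7 and 43.9 kb), while Foxa2 was named in 1 replicate. Of 14 pancreatic endocrine genes 6 were marked (42.9%), among them the transcription factor genes Pdx1 (22.6 and 22.9 kb) and Insm1 (26.6 and 24.6 kb). Of the 8 that were not marked, 2 were named in a single replicate, the hormone gene Ins2 (11.3 kb in replicate 1) among them.

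Of 15 sclerotome and cartilage genes, the setting of Nkx3-2, 8 were marked (53.3%, against 8.82% of all protein-coding genes). In width they ran from Meox2 (2.88 and 3.41 kb) to Uncx (40.8 and 40.3 kb). Pax1, the protein-coding gene that follows Nkx2-2 on the side away from Nkx2-4, was marked (28.3 and 22.6 kb). Pax9, which follows Nkx2-9 on the side away from Nkx2-1, had a promoter region in replicate 2 (11.8 kb) and none in replicate 1. Genes in several of these lists count in each.

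Marker genes were set beside the members for the cells the sort could hold. Of 10 lingual and oral epithelium markers 4 were marked (40%), Krt15, Krt13, Krt4 and Sox2. Another 2 were named in a single replicate, Krt5 (14.9 kb in replicate 2) among them, and Krt14, Trp63, Epcam and Cdh1 in neither. Of 17 markers of mesenchyme, muscle, endothelium, glia and immune cells 7 were marked (41.2%), including Pdgfra, Twist1, Myod1, Pax7 and Sox10, and another 2 were named in a single replicate. Over all protein-coding genes 8.82% were marked. A share of cells carrying the mark cannot be read from regions, so a mark in all sorted cells and one in part of them cannot be told apart.

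The count of marked members was also 8 of 8 with any overlap of the gene bounds (13.3% of protein-coding genes). It was 8 of 8 with a region within 5000 bp of either gene end (14.1%) and with regions above the median width of their list (6.31%). It was the same with a region of any location class (15.3%) and in either replicate (16.4%). These last rules are looser than the main one, so they could not lower the count.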

How the data were processed

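For each replicate the authors deposited its own list of regions. Per the file headers, a row holds chromosome, start, end, 1 of 4 location classes and gene names. Per the labels, coordinates are in mm10. The submitters' processing notes name Bowtie2 2.3.3 and SAMtools 0.1.19. Which caller and settings were used, whether the input entered the calling and how the classes were set is not given in the sources used here. No height or score is listed and the depth is unknown, so presence and width were measured. Libraries were built from 4 ng of DNA. Neighbouring regions were at least 999 bp apart, so closer stretches may stand as 1 region.

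Width is last minus first coordinate. Gene bounds, promoter windows and starts came from RefSeq tables of GRCm38.p6, the assembly mm10 names, and names were matched by symbol, then by a synonym held by 1 gene. Overlap was counted from 1 bp. With 1 group of 2 replicates no condition was compared and no test was run. Error is the SD over the 2 replicates. The 8 members and 14 gene lists were chosen with earlier results of these data known. Named genes were the members, genes overlapped or named by their regions, examples among the marked genes of each list and the 5 genes nearest in width. Other genes named as unmarked were chosen after their values were seen. The lists are otherwise given by counts, and some of their genes and 1 list are not reported here. Interval functions were tested on simulated data. Analyses used Python 3.11.15, numpy 2.4.6, pandas 2.3.3 and matplotlib 3.10.9.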

Additional observations from a re-analysis of the deposited data

How the results depend on the processing

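For 34 results, 172 values were computed under alternatives, of which 159 counted as unchanged, 13 moved and 0 reversed. A count stood as unchanged when it differed from the main count by no more than 1.5 fold. By that rule 1364 marked protein-coding genes with regions above the median width counted as unchanged beside 1908. So did 2770 in replicate 1 alone. The count of marked members was 8 under each rule tried, and it was 6 of 6 when members within 100 kb counted as 1. Rules looser than the main one (any location class, either replicate, 1 replicate alone) could not lower it, and the 6 of 6 follows from the 8. The mean covered share of a member was 99.9%, from 99.9% to 100% when either replicate was left out, and 93.5% when 5000 bp were added on each side of the gene. The median width was 21.6 kb, and 20.9 to 22.6 kb when either replicate was left out. With 2 replicates, leaving out 1 always stays within the SD of a mean, so such values could not count as moved. With regions less than 5000 bp apart joined, the mean width at Nkx2-4 was 18.5 kb in place of 15.5 kb. The 16 member regions with a partner still had one at an overlap of 50% of both regions. The count of all marked genes, 1908, was 3301 with any location class, 2874 with overlap of gene bounds, 3055 within 5000 bp of a gene end and 3552 in either replicate. No paired analysis was possible because only 1 group had lists and the result comes from no test. Depth is unknown, so a missing region does not show that the mark was absent.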
